A study of Mus musculus with 6 samples.

Results

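The 10 genes described here break down haem, store iron or carry it across membranes: Hmox1, Blvra, Blvrb, Fth1, Ftl1, Slc40a1, Tfrc, Slc11a1, Slc11a2 and Ncoa4. They were taken by symbol from a list of these functions, chosen with earlier results of these data known. All 10 were found among the 16108 genes of the deposited expression table. The values come from RNA-seq of RAW264.7 cells, an established mouse macrophage-like line, and all groups were of this 1 line. The cells had attached overnight to an acoustic device and were then kept for 48 h either with the device silent (acoustics-off, 3 libraries) or with it running at 5 kHz and 18 V (peak to peak) (acoustics-on, 3 libraries). The design also names cells on a petri dish, which were not analysed here. Nothing in the labels shows that libraries of a group came from separate cultures, so the p-values reflect only the spread among these libraries, and that spread may be technical.

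Macrophages take up old red cells and recycle their iron. Haem oxygenase 1, the product of Hmox1, opens the haem ring and frees iron, carbon monoxide and biliverdin. The biliverdin reductase encoded by Blvra turns this biliverdin into bilirubin. Blvrb encodes the other biliverdin reductase, also known as flavin reductase. The freed iron is stored inside shells of ferritin heavy and light chains (Fth1 and Ftl1) or leaves the cell through ferroportin (Slc40a1), the known iron exporter of mammalian cells. NCOA4 carries ferritin to the lysosome for breakdown. Iron enters through the transferrin receptor (Tfrc) and crosses endosomal and phagosomal membranes through the divalent metal transporters encoded by Slc11a2 and Slc11a1. Hmox1, the ferritin genes and Slc40a1 are textbook targets of the transcription factor NRF2. Iron also sets the translation or decay of several of these mRNAs through iron regulatory proteins, which bind a hairpin called the iron-responsive element.

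That hairpin is shown first. It is a known feature of several of these iron genes, so matches among members chosen for iron functions were likely beforehand. Transcripts of all 10 members in GENCODE M21 (GRCm38) were searched on the sense strand for the loop CAGTGN with a C 5 bases before it and with 5 base pairs, G-T pairs allowed, between the 5-base arms on each side of the loop. The pattern was found in 4 of the 10 members, against 1.34% of 21877 protein-coding gene symbols searched the same way. It allows no unpaired base between the paired arms, so members without a match, Slc11a2 among them, may hold hairpins of other shapes. Each line gives 30 bases in transcript direction, with the 6-base loop in capitals. The first 3 lie in 5' UTRs, where a bound regulatory protein blocks translation, and the 4 of Tfrc lie in its 3' UTR, where binding is known to protect the mRNA from decay.
Fth1 (chr19:9982731-9982760, plus strand): tttcctgcttcaaCAGTGCttgaacggaac
Ftl1 (chr7:45459779-45459808, minus strand): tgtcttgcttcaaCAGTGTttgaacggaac
Slc40a1 (chr1:45925465-45925494, minus strand): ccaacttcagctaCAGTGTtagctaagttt
Tfrc a (chr16:32631218-32631247, plus strand): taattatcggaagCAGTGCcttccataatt
Tfrc b (chr16:32631597-32631626, plus strand): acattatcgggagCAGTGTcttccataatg
Tfrc c (chr16:32631662-32631691, plus strand): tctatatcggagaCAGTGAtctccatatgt
Tfrc d (chr16:32631709-32631738, plus strand): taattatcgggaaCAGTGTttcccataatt

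Expression was given as FPKM, fragment counts scaled by transcript length and by a factor for each library. Levels can be set side by side between genes within the limit of the length trends given below. Median ratio scaling factors were 1.00 in every library, while FPKM sums ran from 716509 (acoustics-on replicate 3) to 1000722 (acoustics-on replicate 1). Per-library counts were not used here. The authors' deposited table gave mean normalised counts for the members from 1571 (Tfrc) to 586578 (Ftl1), so that counting error alone is at most 2.52% of a library's value at the mean. That mean is taken over both groups. The error is therefore larger for members with lower counts in the acoustics-off libraries, such as Slc40a1 (means of 3.79 FPKM off and 29.2 on). Acoustics-on replicate 1 stood apart. Across 10453 genes the shortest 20% of transcripts (up to 1743 bases) had a median log2 difference from the acoustics-off mean of 0.58 in it, and the longest 20% (from 4980 bases) one of -0.59. These medians were 0.20 and -0.20 in acoustics-on replicate 2, and -0.01 and 0.01 in replicate 3. The longest coding transcripts of Ftl1 (968 bases), Blvrb (1028) and Blvra (1160) are among the shortest 20%, as are those of Fth1 (1494) and Hmox1 (1569), and none reaches the longest 20%, with Tfrc (4890) the longest. All 10 macrophage markers were expressed, with sums of 28202 to 30429 FPKM with acoustics off and 20011 to 26925 with acoustics on. Most of each sum was Lyz2, with means of 24695 off and 19379 on. Adgre1, Csf1r, Cd68, Itgam, Lyz2 and Mertk were lower in every acoustics-on library than in any acoustics-off one, while Ptprc, Fcgr1, Spi1 and Cd14 overlapped. Of all genes tested below, 17.7% were lower in this way. Acoustics-on replicate 1 had the lowest value of Adgre1, Csf1r, Cd68, Itgam and Mertk, and replicate 3 that of Lyz2. None of the 10 macrophage markers passed the test described below. Of 10 markers of red cell precursors, in which haem genes are also high, only Epor and Klf1 were in the table, with sums of at most 1.37 FPKM off and 1.71 on. Markers of fibroblasts, endothelium, epithelium and lymphocytes summed to at most 7.80 FPKM in any library, a sum reached by the endothelial markers with acoustics on.

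With acoustics on, the transcripts for haem oxygenase 1 and ferroportin rose, and 2 of the 10 members passed the test while 0 fell (limma on log2(FPKM + 1), Benjamini-Hochberg adjusted p under 0.05 over 11664 genes). Over all genes tested, 1.50% were higher and 0.574% lower by this rule. The median log2 difference was 0.69 over the members and -0.03 over all genes. All 3 acoustics-on values lay above all 3 acoustics-off values for 7 members (Hmox1, Blvrb, Fth1, Ftl1, Slc40a1, Tfrc and Slc11a1), and the opposite held for 0. Over all genes tested, groups were separate in this way for 17.1% (higher) and 17.7% (lower). In bulk libraries such as these, a change in the number of cells that express a gene and a change in RNA per cell cannot be told apart.

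**Figure D1:**
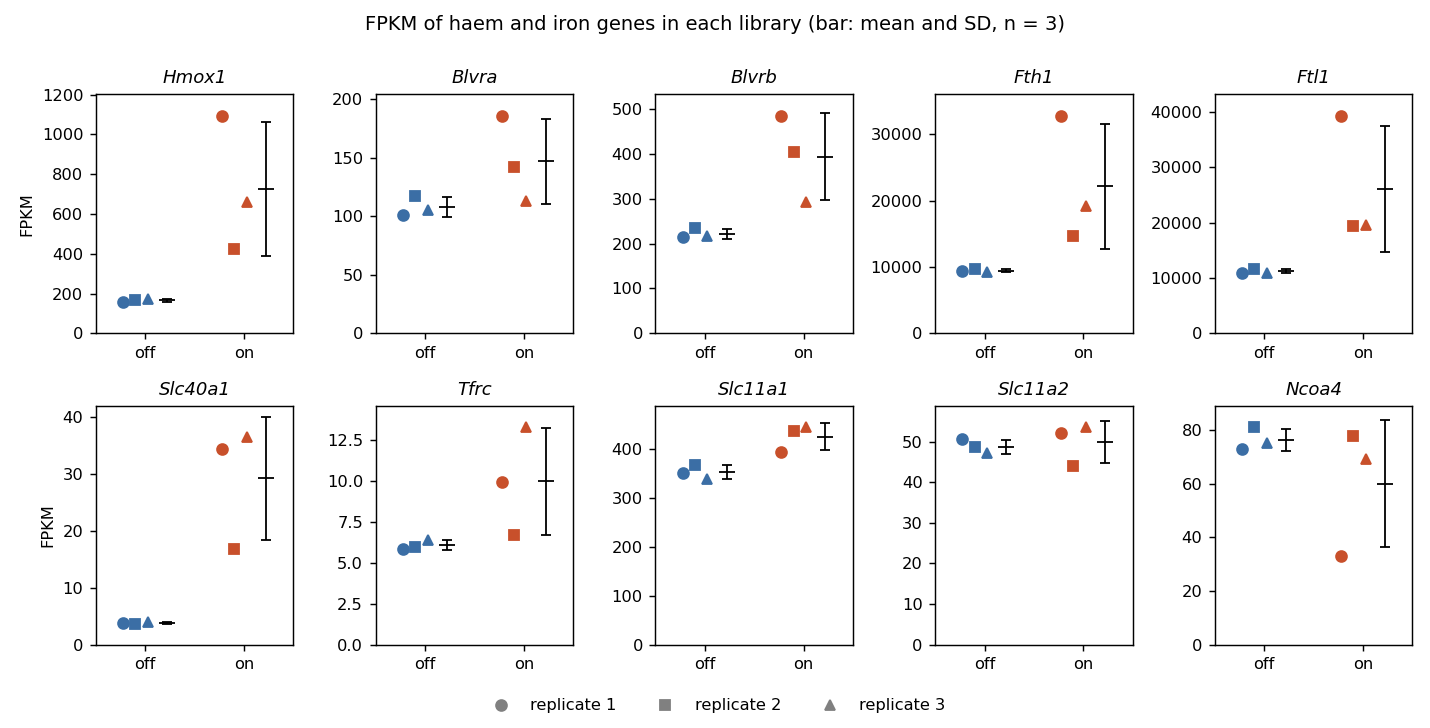
FPKM (vertical axis from 0, a scale for each gene) of the 10 genes in the 3 acoustics-off (blue) and 3 acoustics-on (orange) libraries, with symbols for replicate numbers and a bar for mean and SD. The acoustics-off values lie close together for each gene, while the acoustics-on values spread, for Hmox1 from 425 to 1092 FPKM.

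Among the genes of haem breakdown, Hmox1 (chromosome 8, 75093621 to 75100589, GRCm38) had 156, 169 and 172 FPKM in acoustics-off replicates 1, 2 and 3 and 1092, 425 and 658 FPKM in acoustics-on replicates 1, 2 and 3. The groups did not overlap, and the lowest acoustics-on library, replicate 2, was still well above the highest acoustics-off one. The mean was 4.37 times higher, 165.9 ± 8.72 against 725 ± 339 FPKM (SD, n = 3), and the log2 difference was 2.02 (SE 0.32, adjusted p = 0.0313). Hmox1 did not pass without acoustics-off replicate 1, 2 or 3 (adjusted p = 0.165, 0.142 and 0.15) or without acoustics-on replicate 3 (adjusted p = 0.0968), nor with no filter on low values (adjusted p = 0.0608), while its log2 difference stayed between 1.67 and 2.35 with any 1 library left out.

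Blvrb, which encodes the other biliverdin reductase, also known as flavin reductase, measured 214, 234 and 216 FPKM off and 484, 405 and 293 FPKM on. Its groups were separate, with a log2 difference of 0.80 (SE 0.20, 95% interval 0.32 to 1.28), but it did not pass over all genes (adjusted p = 0.109). Blvra, the main adult biliverdin reductase, had 101, 118 and 105 FPKM off and 186, 142 and 113 on. Acoustics-on replicate 3 fell inside the acoustics-off range, and the log2 difference was 0.41 (95% interval -0.05 to 0.88, adjusted p = 0.290). Within each library the ratio of Blvrb to Blvra was 1.99 to 2.12 with acoustics off and 2.59 to 2.85 with acoustics on. Hmox1 was 1.44 to 1.64 times the level of Blvra with acoustics off and 2.99 to 5.89 times with acoustics on.

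The ferritin chains were among the most abundant transcripts of these cells in both groups. Fth1, the heavy chain that oxidises iron for storage, measured 9426, 9680 and 9217 FPKM off and 32743, 14608 and 19162 FPKM on. Ftl1, the light chain, had 10969, 11654 and 10993 FPKM off and 39294, 19472 and 19505 on. For both genes every acoustics-on library was above every acoustics-off one, and acoustics-on replicate 1 was highest. By FPKM, Ftl1 ranked 5, 4 and 5 among all genes in acoustics-off replicates 1, 2 and 3 and 1, 2 and 1 in acoustics-on replicates 1, 2 and 3.

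Together the 2 chains took 2.43% to 2.58% of all FPKM in the acoustics-off libraries and 7.20%, 4.14% and 5.40% in acoustics-on replicates 1, 2 and 3. The log2 difference was 1.15 for Fth1 (SE 0.32, 95% interval 0.40 to 1.90, adjusted p = 0.130) and 1.14 for Ftl1 (SE 0.32, 95% interval 0.39 to 1.88, adjusted p = 0.133), and neither passed over all genes. The heavy-to-light ratio was 0.831 to 0.859 with acoustics off and 0.833, 0.750 and 0.982 in acoustics-on replicates 1, 2 and 3, so the groups overlapped. Mouse ferritin genes have many processed pseudogenes, and reads shared with such copies leave both levels uncertain.

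Ncoa4, which encodes the receptor for ferritin breakdown, measured 72.8, 81.0 and 75.0 FPKM off and 33.1, 77.7 and 69.0 FPKM on. The low value was in acoustics-on replicate 1, the library in which long transcripts were low, and the longest coding Ncoa4 transcript has 4065 bases. The log2 difference was -0.43 with all libraries (95% interval -1.15 to 0.29, adjusted p = 0.431). It was -0.30 with the trends divided out (adjusted p = 0.368) and -0.06 without that replicate. In the deposited values, ferritin chain transcripts were 263 to 280 times the level of Ncoa4 with acoustics off and 2176, 438 and 561 times in acoustics-on replicates 1, 2 and 3.

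Slc40a1 (chromosome 1, 45908068 to 45926523) had the lowest level of the members with acoustics off and the largest difference. It had 3.72, 3.66 and 3.99 FPKM in acoustics-off replicates 1, 2 and 3 and 34.3, 16.8 and 36.5 FPKM in acoustics-on replicates 1, 2 and 3. The groups were far apart, with replicate 2 again the lowest of the acoustics-on libraries, as for Hmox1. The mean was 7.71 times higher, 3.79 ± 0.18 against 29.2 ± 10.8 FPKM (SD, n = 3), and the log2 difference was 2.58 (SE 0.28, adjusted p = 0.00989), a scale that understates the change of a gene with so low a level. Slc40a1 passed without any 1 acoustics-on library and did not pass without acoustics-off replicate 1, 2 or 3 (adjusted p = 0.0728, 0.0692 and 0.0646), with log2 differences from 2.39 to 2.93 in these 6 fits.

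Of the uptake genes, Tfrc measured 5.84, 5.98 and 6.41 FPKM off and 9.93, 6.72 and 13.3 FPKM on. The groups were separate by a narrow margin at acoustics-on replicate 2, and the log2 difference of 0.59 did not pass (SE 0.23, 95% interval 0.06 to 1.12, adjusted p = 0.223). Slc40a1 was 0.611 to 0.637 times the level of Tfrc in the acoustics-off libraries and 3.45, 2.50 and 2.74 times in acoustics-on replicates 1, 2 and 3. The ratio of ferritin chains to Tfrc, in contrast, overlapped between the groups, at 3153 to 3568 off and 2906 to 7251 on. The 3 members that matched the searched pattern in the 5' UTR, and Tfrc with its 3' UTR matches, were thus all higher in each acoustics-on library. Of these, Slc40a1 alone passed the tests above. Among members without a match, Hmox1, Blvrb and Slc11a1 were also higher in each acoustics-on library, and Blvra, Slc11a2 and Ncoa4 overlapped between the groups. The share of all genes tested that were higher in this way was 17.1%. Whether the hairpin bears on these levels was not tested.

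Slc11a1, which pumps metal ions out of the phagosome and of which RAW264.7 cells carry a natural loss-of-function allele, measured 350, 366 and 338 FPKM off and 393, 437 and 444 FPKM on. Its groups were separate, but the log2 difference was only 0.27 (95% interval -0.05 to 0.59, adjusted p = 0.305). Slc11a2, which carries ferrous iron out of the endosome, had 50.7, 48.7 and 47.2 FPKM off and 52.3, 44.0 and 53.6 on. These values overlapped, and the 95% interval of the log2 difference ran from -0.27 to 0.32 (difference 0.03, adjusted p = 0.907).

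With acoustics off, the members kept 1 order of levels without overlap between neighbours. From the highest it ran Ftl1, Fth1, Slc11a1, Blvrb, Hmox1, Blvra, Ncoa4, Slc11a2, Tfrc and Slc40a1. With acoustics on, Hmox1 stood next after the ferritin chains by its mean, with values that overlapped those of Slc11a1 and Blvrb, and Slc40a1 stood above Tfrc in every library. Replicates also spread more widely with acoustics on. The coefficient of variation of the 10 members was 2.46% to 7.94% with acoustics off and 6.52% to 46.7% with acoustics on, and the highest acoustics-on library was 2.57 times the lowest for Hmox1 and 2.17 times for Slc40a1.

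**Figure D2:**
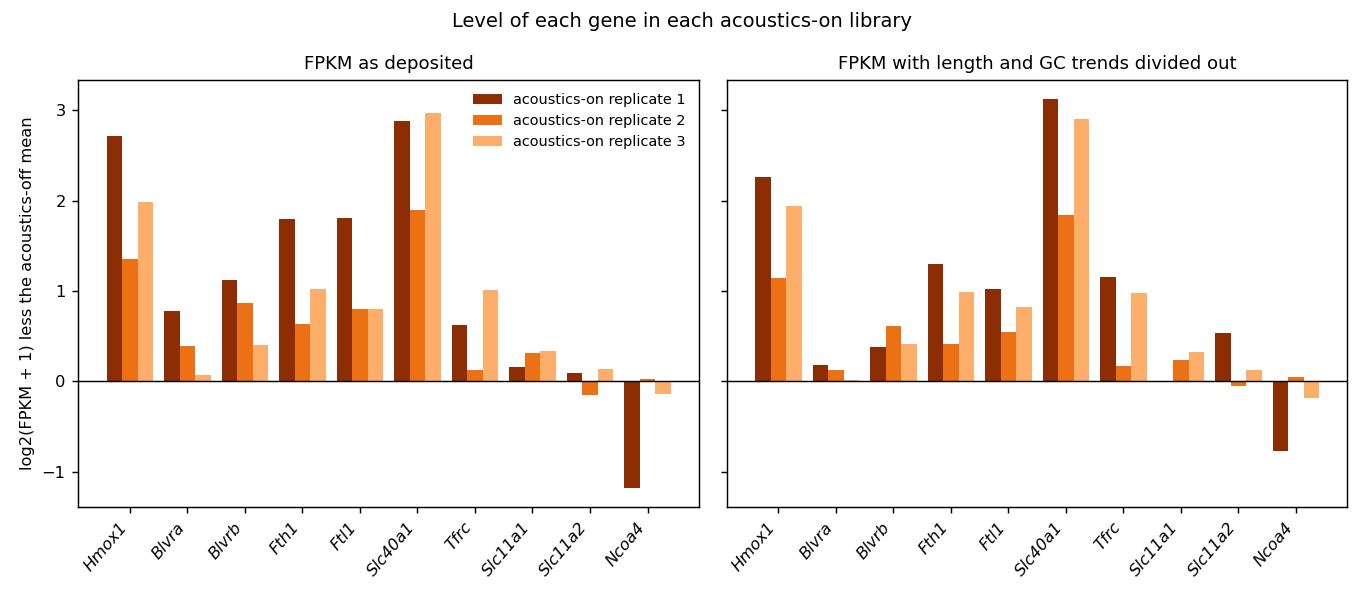
Bars give log2(FPKM + 1) in each acoustics-on library less the acoustics-off mean, for FPKM as deposited (left) and with trends on transcript length and GC content divided out (right). Replicate 1 is highest for Fth1 and Ftl1 in both panels (1.79 and 1.81 as deposited, 1.30 and 1.02 after the correction), and Hmox1 and Slc40a1 are above 1 in every library.

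Because short transcripts were high in acoustics-on replicate 1, the members were also compared with trends on length and GC content divided out of each library and, separately, without that library. With the trends divided out, 4 members passed and 0 fell: Hmox1 (log2 difference 1.78), Blvrb (0.47), Ftl1 (0.79) and Slc40a1 (2.62). Over all genes, 3.28% were then higher and 3.14% lower. The correction lowered Blvra from 0.41 to 0.11, Blvrb from 0.80 to 0.47 and Ftl1 from 1.14 to 0.79, and raised Tfrc from 0.59 to 0.77. Fth1, corrected by its longest coding transcript of 1494 bases although another annotated one has 929, went from 1.15 to 0.90 (adjusted p = 0.0539). Without acoustics-on replicate 1, Hmox1 (1.67), Ftl1 (0.80) and Slc40a1 (2.43) passed and 0 members fell, where 4.34% of all genes were higher and 3.11% lower. Fth1 then had a log2 difference of 0.83 (adjusted p = 0.0528) and Blvrb one of 0.63 (adjusted p = 0.0518).

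**Figure D3:**
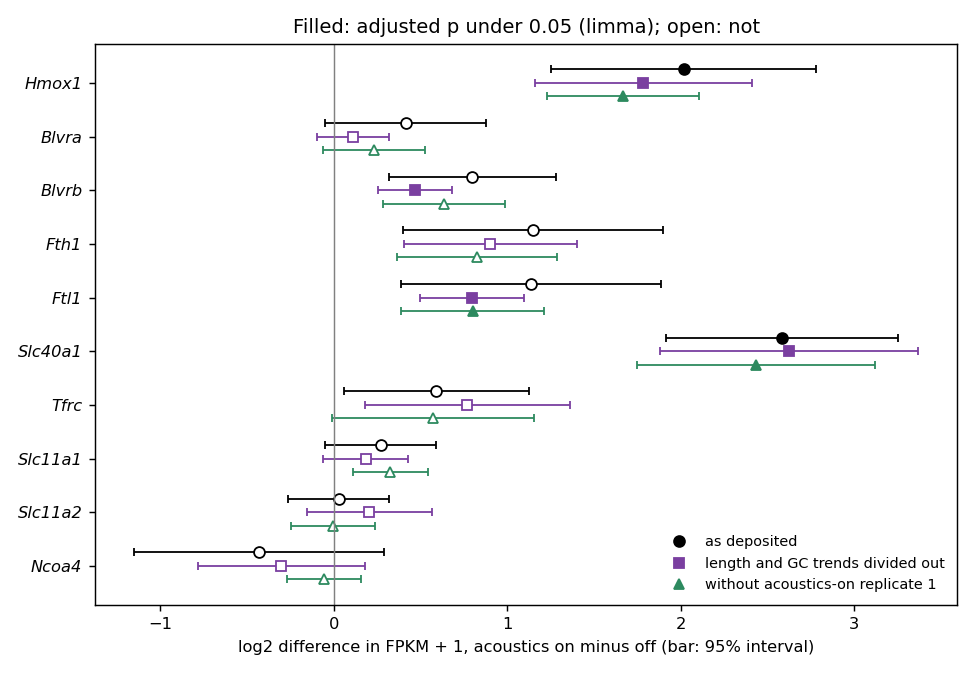
Log2 difference in FPKM + 1, acoustics on minus off, with 95% intervals, from the deposited values (black circles), after the length and GC correction (purple squares) and without acoustics-on replicate 1 (green triangles); filled symbols have an adjusted p under 0.05. Hmox1 and Slc40a1 are filled in all 3 fits, Ftl1 in 2 and Blvrb in 1.

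The authors' deposited table, made with a test on counts, listed 5 members as higher at an adjusted p under 0.05 and 0 as lower, where 5.08% of the genes with an adjusted p were higher and 2.49% lower. In the authors' deposited table the log2 fold changes were 2.13 for Hmox1, 0.83 for Blvrb, 1.23 for Fth1, 1.22 for Ftl1 and 2.95 for Slc40a1, and the adjusted p was 0.00153 for Fth1, 0.00181 for Ftl1 and 0.00533 for Blvrb. Tfrc was at 0.72 there with an adjusted p of 0.0823. The direction was the same as in the limma fit for each of the 10 members.

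A wider set of 112 haem and iron genes in 8 lists, chosen with earlier results of these data known, was described beside the members. Of these, 93 were in the table and 83 were tested, and 6 rose and 0 fell by the limma rule, with a median log2 difference of 0.10 (1.50% and 0.574% of all genes, median -0.03). Among the 6, Lcn2 passed the filter on low values only through its acoustics-on values. The counts were 9 that rose and 4 that fell without acoustics-on replicate 1, and 8 and 3 after the length and GC correction. Over all genes, 4.34% were higher and 3.11% lower in the first of these fits, and 3.28% and 3.14% in the other. The lists differed in how many members passed.

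Of 9 tested genes of haem uptake, movement and breakdown, 3 rose: Slc48a1, Abcb6 and Hp. Slc48a1, which exports haem from the phagolysosome into the cytosol, measured 63.7, 65.6 and 61.7 FPKM off and 158, 128 and 151 on (log2 difference 1.18, SE 0.13, adjusted p = 0.00983). The porphyrin transporter gene Abcb6 had 4.92, 5.65 and 5.75 FPKM off and 17.5, 10.9 and 14.1 on (log2 difference 1.22, adjusted p = 0.0263). Hp encodes haptoglobin, the plasma protein that binds free haemoglobin, and had 3.32, 3.36 and 2.36 FPKM off and 51.4, 23.5 and 46.1 on (log2 difference 3.30, adjusted p = 0.0063). The groups were separate for all 3, which also passed after the correction and without acoustics-on replicate 1. Hp passed with any 1 library left out. Slc48a1 did not pass without acoustics-off replicate 1, 2 or 3 (adjusted p = 0.0977, 0.0889 and 0.0999), nor did Abcb6 (adjusted p = 0.162, 0.134 and 0.142), which was also lost without acoustics-on replicate 3 (adjusted p = 0.0890). Hmox2, the constitutive haem oxygenase, had 87.9, 87.5 and 88.5 FPKM off and 122, 91.1 and 79.8 on, an overlap of the groups (log2 difference 0.13, adjusted p = 0.667). The hemopexin and alpha-2-macroglobulin receptor gene Lrp1 had a log2 difference of -0.06, and Pgrmc1, which encodes a haem-binding membrane protein, one of 0.15.

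Of 11 tested genes of haem synthesis, 0 passed. Alas1, the first and rate-limiting enzyme, measured 49.1, 52.3 and 55.0 FPKM off and 72.6, 74.0 and 87.1 on, and its groups were separate (log2 difference 0.57, adjusted p = 0.0818). It passed without acoustics-on replicate 1 (0.62, adjusted p = 0.0208) and after the correction (0.65, adjusted p = 0.0133). Tspo, a mitochondrial outer membrane protein that binds porphyrins, had a log2 difference of 0.65 (adjusted p = 0.171), and Alad, which joins the porphyrin precursors, one of 0.54 (adjusted p = 0.296). For Alad the highest value, 60.9 FPKM, was in acoustics-on replicate 1, with 30.4 and 31.1 FPKM in the other two.

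Of 11 tested genes of iron storage, chaperones and iron sensing, 0 passed, and the iron chaperone gene Pcbp1, the highest of them, had a log2 difference of 0.01. Fbxl5, which encodes an iron-sensing ubiquitin ligase subunit, was the only gene of that list to rise after the correction (0.41, adjusted p = 0.0489) or without acoustics-on replicate 1 (0.40, adjusted p = 0.0386). Glrx3 and Bola2, whose products form an iron-sulphur chaperone complex, had differences of 0.14 and 0.10. Of 8 tested genes of iron uptake and ferrireductases, 0 passed. Cybb, a haem-carrying oxidase subunit on that list, had 1006, 926 and 914 FPKM off and 371, 836 and 1076 on, where the low value was again that of acoustics-on replicate 1 (log2 difference -0.45, adjusted p = 0.493). Snx3 and Vps35, which sort endosomal cargo including the transferrin receptor, had log2 differences of 0.05 and -0.11.

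Of 4 tested genes of iron export and the hepcidin axis, 0 passed. Cp, which encodes the ferroxidase ceruloplasmin that works with ferroportin, was lower in all 3 acoustics-on libraries, with 35.6, 32.1 and 32.1 FPKM off and 12.6, 20.1 and 18.4 on (log2 difference -0.95, SE 0.18, adjusted p = 0.0531). It fell in the fit without acoustics-on replicate 1 (-0.76, adjusted p = 0.00731) and after the correction (-0.79, adjusted p = 0.00979). Hfe, from the pathway that senses iron for hepcidin, had a log2 difference of -0.14, and the 95% interval for the receptor gene Bmpr1a ran from -0.64 to 0.64.

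Of 3 tested innate immune genes linked to iron, Lcn2 and Acod1 rose. Lcn2 encodes lipocalin 2, which binds bacterial iron carriers, and had 0.07, 0.25 and 0.04 FPKM off and 2.27, 5.61 and 9.19 on (log2 difference 2.44, adjusted p = 0.0292). Lcn2 did not pass with no filter on low values (adjusted p = 0.0591), with a pseudocount of 5 (adjusted p = 0.0762) or without acoustics-off replicate 1, 2 or 3 (adjusted p = 0.153, 0.130 and 0.146). Acod1, which makes itaconate and does not carry iron, had a log2 difference of 2.81 (adjusted p = 0.00256) and passed with any 1 library left out. S100a8, a subunit of the metal-binding protein calprotectin, had a log2 difference of 2.22 that did not pass (adjusted p = 0.0531). Without acoustics-on replicate 1, 2 or 3, Lcn2 and S100a8 fell below the filter on low values and were not tested. Acod1 passed in each of these fits.

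Of 26 tested genes of mitochondrial iron and iron-sulphur clusters, 0 passed, with a median log2 difference of 0.30. In acoustics-on replicates 1, 2 and 3 the list's medians were 0.43, 0.22 and 0.11, highest in the library with raised short transcripts. After the length and GC correction 0 of its genes rose and 1 fell, Slc25a28, a mitochondrial iron carrier. In the fit without that library 2 rose, the iron-sulphur protein genes Cisd1 (0.47, adjusted p = 0.0294) and Fdx1 (0.35, adjusted p = 0.0494), and Slc25a28 again fell (-0.34, adjusted p = 0.0479). Its most abundant members were the scaffold gene Iscu (log2 difference 0.27), Ciao2b (0.47) and Nfu1 (0.15).

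Of 11 tested regulators, Mafg rose, and it encodes a small MAF protein that pairs with NRF2 or with its antagonist BACH1 on DNA. It measured 29.5, 29.9 and 29.0 FPKM off and 49.2, 44.4 and 60.6 on, with separate groups (log2 difference 0.77, SE 0.14, adjusted p = 0.0472). Mafg did not pass with no filter on low values (adjusted p = 0.0758), with a pseudocount of 5 (adjusted p = 0.0501), without acoustics-off replicate 1, 2 or 3 (adjusted p = 0.246, 0.227 and 0.252) or without acoustics-on replicate 3 (adjusted p = 0.0816). Mafk, another small MAF gene, had lower values in all 3 acoustics-on libraries (log2 difference -0.44, adjusted p = 0.136) and fell in the fit without acoustics-on replicate 1 (-0.36, adjusted p = 0.0390). Bach1 values were also separate and lower, with 14.3, 15.7 and 14.9 FPKM off and 4.81, 12.5 and 10.9 on (log2 difference -0.71, adjusted p = 0.261). The lowest of these was in acoustics-on replicate 1, the library in which long transcripts were low. Bach1 passed neither without that library nor after the correction. Nfe2l2, the NRF2 gene itself, had 89.9, 87.6 and 84.4 FPKM off and 63.3, 78.6 and 75.8 on (log2 difference -0.27, adjusted p = 0.294). Zfp36, which encodes an mRNA-destabilising protein that acts on Tfrc mRNA among others, had a log2 difference of -0.82 (adjusted p = 0.0695), and it fell after the correction (-0.82, adjusted p = 0.0294) and without acoustics-on replicate 1 (-0.77, adjusted p = 0.0431). The related factor gene Nfe2l1 had a log2 difference of 0.18. The promoter table of RefSeq (GRCm38.p6, a fixed window around each start site) held 12 promoters of 7 members, and Hmox1, Slc40a1 and Slc11a2 were not searched. The antioxidant response element core TGACNNNGC, on either strand, was found in 2 of these 12, the 1 of Blvra and 1 of the 3 of Ncoa4, where 12.4% of all 32851 promoters in the table hold it.

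**Figure D4:**
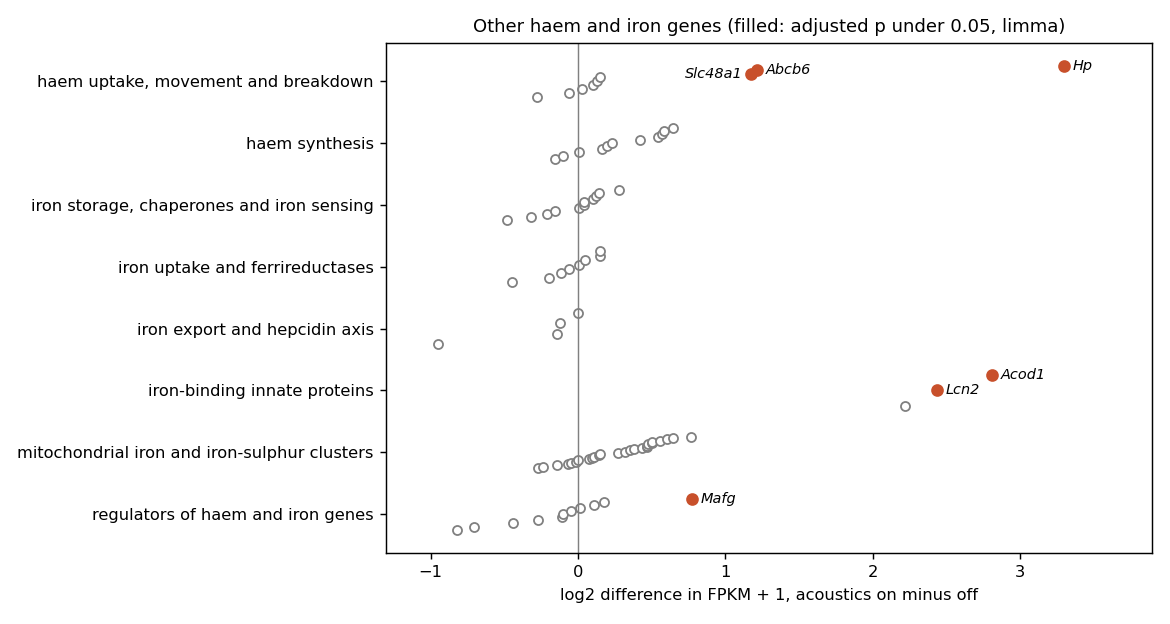
Log2 difference in FPKM + 1, acoustics on minus off, of the 83 tested haem and iron genes outside the 10 members, each point a gene and each row a list; filled points passed the limma test. The 6 filled points all lie to the right of 0, and Hp is the farthest at 3.30.

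The genes with a pattern most like that of the risers were found by the root mean square difference, over the 6 libraries, of log2(FPKM + 1) less the acoustics-off mean. For Slc40a1 the nearest was Gclm, which encodes the modifier subunit of glutamate-cysteine ligase, at 0.18, with Serpinb9b at 0.26 and the peroxiredoxin gene Prdx1 at 0.32. Serpinb9b measured 0.11, 0.22 and 0.33 FPKM off and 12.2, 4.40 and 9.11 on. It passed the filter on low values only through its acoustics-on values. Gclm measured 35.5, 36.3 and 38.9 FPKM off and 308, 187 and 313 on, again lowest among the acoustics-on libraries in replicate 2. For Hmox1 the nearest were Rtp4 (0.13), Dnmt3l (0.17) and the metal transporter gene Slc39a2 (0.18). Slc39a2 measured at most 1.61 FPKM off and 11.5, 4.88 and 10.2 on.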

How the data were processed

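RNA-seq libraries of RAW264.7 cells were grouped by the labels (3 acoustics-off, 3 acoustics-on). Per the labels' protocols ribosomal RNA was depleted, while the molecule label says polyA RNA. The submitters' processing notes name DESeq2 1.38.2, Salmon 1.4.0, STAR 2.7.11, Trim Galore 0.6.8 and the build GRCm38. Settings, strandedness and annotation are not given in the sources read for this work. The authors deposited FPKM for each gene in each library. Their deposited comparison table holds, per gene, a mean normalised count signal, a log2 fold change and its standard error, a Wald score, a p-value and an adjusted p-value, the last missing for 1586 genes.

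Genes with at least 0.5 FPKM in at least 3 libraries were tested with limma 3.58.1 (R 4.3.3) on log2(FPKM + 1), with a trended, robust variance prior, no replicate term and Benjamini-Hochberg adjustment over all genes at 0.05. The script was tested on simulated data. For the correction, loess curves (span 0.5) described how a library's values followed length and GC content, taken from each gene's longest protein-coding transcript (GENCODE M21, 13161 genes matched by symbol), over genes with a mean of at least 1 FPKM, and were divided out. Library weights were estimated gene by gene because limma's default estimate stopped before it converged. Same-numbered libraries were not paired by the labels. Other settings were other pseudocounts, filters and scalings, a replicate block, no robust prior and each library left out.

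The members and lists were chosen with earlier results of these data known. Named were all 10 members, every other list gene past the threshold, the 3 most abundant others of each list, and the 3 genes nearest to each member that passed. Fbxl5, Slc25a28, Cisd1, Fdx1, Mafk and Bach1 fall outside this rule and were named after their values were seen.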

Additional observations from a re-analysis of the deposited data

How the results depend on the processing

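Hmox1 and Slc40a1 kept a higher level with acoustics on in the 16 alternatives that could change a value (log2 differences 1.50 to 2.35 and 1.90 to 2.93), and passed in 11 and 13 of them; median ratio scaling left the values as they were and is not counted. The number of members that rose (2) was 1 with no filter on low values (Slc40a1, with Hmox1 lost), 6 with library weights, 4 with the length and GC correction and 6 with that correction and without acoustics-on replicate 1, and it ran from 0 to 3 with single libraries left out; 0 members fell in any setting. For the other haem and iron genes, the 6 that rose became 18 with library weights and 2 to 9 with single libraries left out. The 0 that fell became 1 with no filter, 1 with no robust prior, 4 with library weights, 3 with the correction, 8 with the correction and without acoustics-on replicate 1, and 0 to 4 with single libraries left out. Over all genes, the 242 past the threshold became 150 with no filter, 1882 with library weights, 671 with the correction, 1388 with the correction and without acoustics-on replicate 1, and 17 to 855 with single libraries left out; the cause was not tested. Slc11a2 changed sign with library weights (-0.0857) and without acoustics-on replicate 1 (-0.0075) or 3 (-0.0260), ranged from -0.0260 to 0.1143 with single libraries left out, and passed in 0 settings. With a replicate block, the count of members that rose stayed at 2 and Mafg did not pass (limma, adjusted p = 0.1005). The same-numbered libraries had correlations of -0.0727 to -0.00395 in their deviations from the group means. Differently numbered libraries had correlations of -0.116 to 0.117. With 3 libraries per group these values cannot show whether the numbers pair the samples. The low levels of Slc40a1 and Tfrc with acoustics off make their log2 differences depend on the pseudocount: for Slc40a1 it was 2.83 with 0.1 and 1.90 with 5.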

Other observations

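Below the filter on low values were 2 genes of the hepcidin axis whose groups did not overlap, named after their values were seen. Hamp, which encodes hepcidin, the peptide that makes cells degrade ferroportin, was listed at 0 FPKM in each library with acoustics off, and at 0.12, 1.24 and 1.82 FPKM in acoustics-on replicates 1, 2 and 3. With no filter it did not pass (limma, log2 difference 0.94, adjusted p = 0.238), and in the authors' deposited table its mean normalised count was 4.58 with an adjusted p of 0.0363. Bmp2, a ligand of the pathway that induces hepcidin in the liver, measured 0.60, 0.52 and 0.42 FPKM off and 0.10, 0.10 and 0.05 on. With no filter it was lower (limma, log2 difference -0.49, adjusted p = 0.0292), and the authors' deposited table gave a log2 fold change of -2.65 from a mean normalised count of 44.9.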
